A study of Mus musculus with 7 samples.

Results

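Enzymes that remove superoxide and peroxides, keep thiols reduced and conjugate reactive compounds to glutathione were examined in mouse pancreatic islets that lack FoxO1, FoxO3 and FoxO4 in their beta cells. The members were taken by gene symbol, by a rule that uses no measured value but was set with earlier results of these data known. They were the genes whose symbol begins with Gst, Gpx, Prdx or Txn, or with Sod and a digit, together with Cat, Gclc, Gclm, Gss, Gsr, Nqo1, Hmox1 and Srxn1, and without Gpx2 and Txnip. Only probe sets annotated to a single symbol were used, which gave 54 members of 14807 named genes, each with 1 probe set. They comprised 2 superoxide dismutases, 8 genes of catalase and the glutathione peroxidases, 5 of the peroxiredoxins and sulfiredoxin, 4 thioredoxins and thioredoxin reductases, 12 other proteins named for a thioredoxin fold, 3 of glutathione synthesis and reduction, 18 glutathione transferases, and Nqo1 with Hmox1. A further 6 probe sets carry a qualifying symbol beside that of another gene and were not used. Several familiar enzymes, among them Sod1, Gclm and Txnrd1, were not analysed here.

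The control group was 4 islet samples from WT littermates (controls 1 to 4), and the knockout group was 3 from b-FoxO triple KO mice (knockouts 5 to 7), titled R+KO, a mark whose meaning is not given in the sources used here. Both groups shared the 129 x FVBn x C57BL/6 background, and cohorts were matched for age and sex, although neither age nor sex is given. The labels name neither the promoter that drives the deletion nor whether the controls carry a recombinase, and they do not say whether a sample is 1 mouse or a pool. P-values therefore measure only the spread between these samples. Islets also contain alpha, delta, endothelial and other cells that keep the FoxO genes, and in a bulk sample fewer cells of a type cannot be told apart from less RNA per cell.

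Superoxide dismutases turn superoxide into hydrogen peroxide, which catalase, glutathione peroxidases and peroxiredoxins then remove. Glutathione peroxidases draw on glutathione and peroxiredoxins mostly on thioredoxin, and both carriers are returned to the reduced state with NADPH. Beta cells are known for low levels of catalase and glutathione peroxidase compared with liver, and FoxO factors are known in other cells as activators of Sod2 and Cat. The transcription factor NRF2, encoded by Nfe2l2, induces many of the other genes, Nqo1, Srxn1, Prdx1 and the glutamate-cysteine ligase genes among them, through the antioxidant response element.

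Promoter sequence was searched for both factors. RefSeq windows (GRCm38.p6) of 250 bases before to 50 bases after the start were found for 46 of the 54 members, in 60 windows. The core of the antioxidant response element, TGACNNNGC on either strand, was present in 8 of the 60 windows, each of a different gene, against 12.4% of all 32851 windows. The FoxO site GTAAACA on either strand was present in 1 of the 60, against 3.65% of all windows, and the letters of the 2 motifs do not overlap in any window shown. The 4 windows printed here belong to Prdx1, to Srxn1, whose product repairs peroxiredoxins, to Gstm5, and to Txnl4b, the single member with the FoxO site. All lie on the plus strand, are written 5′ to 3′, and carry the matched letters in capitals. The match in Prdx1 (chr4:116685349-116685648) begins 133 bases before the start, that in Gstm5 (chr3:107895604-107895903) 42 bases before it, and that in Txnl4b (chr8:109565642-109565941) 52 bases before it. The match in Srxn1 (chr2:152105274-152105573) begins 28 bases after the first transcribed base. A match is a description of the letters and not evidence of binding.
Prdx1: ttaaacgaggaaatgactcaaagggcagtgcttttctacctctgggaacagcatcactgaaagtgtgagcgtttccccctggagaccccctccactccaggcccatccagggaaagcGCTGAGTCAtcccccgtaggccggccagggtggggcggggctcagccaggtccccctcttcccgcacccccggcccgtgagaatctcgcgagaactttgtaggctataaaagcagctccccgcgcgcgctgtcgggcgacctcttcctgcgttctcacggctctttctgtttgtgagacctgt
Srxn1: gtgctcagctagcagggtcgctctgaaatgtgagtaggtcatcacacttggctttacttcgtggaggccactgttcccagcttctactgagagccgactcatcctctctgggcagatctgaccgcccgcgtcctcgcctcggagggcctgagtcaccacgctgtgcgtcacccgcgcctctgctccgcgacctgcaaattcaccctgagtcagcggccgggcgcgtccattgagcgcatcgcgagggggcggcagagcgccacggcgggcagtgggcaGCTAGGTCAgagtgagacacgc
Gstm5: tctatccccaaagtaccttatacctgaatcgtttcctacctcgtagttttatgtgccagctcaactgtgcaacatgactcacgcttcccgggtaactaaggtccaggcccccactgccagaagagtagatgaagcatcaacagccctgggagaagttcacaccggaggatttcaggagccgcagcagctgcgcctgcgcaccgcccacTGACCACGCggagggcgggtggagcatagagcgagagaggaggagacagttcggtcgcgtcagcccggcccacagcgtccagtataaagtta
Txnl4b: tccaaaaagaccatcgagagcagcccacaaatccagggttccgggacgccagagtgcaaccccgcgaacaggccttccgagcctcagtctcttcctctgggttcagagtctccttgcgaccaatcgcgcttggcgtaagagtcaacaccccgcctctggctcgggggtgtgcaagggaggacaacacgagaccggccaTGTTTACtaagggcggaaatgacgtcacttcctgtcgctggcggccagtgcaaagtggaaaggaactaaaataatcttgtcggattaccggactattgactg

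Some samples stood apart before any comparison was made. On the first principal component, which held 64.7% of the variance over all genes, controls 3 and 4 lay at 43.2 and 30.3, and the other 5 samples lay between -29.0 and -3.40. Transcripts of the immediate early class, induced rapidly by stimulation or handling, averaged 10.92 and 10.95 in controls 3 and 4 but 10.35 and 9.76 in controls 1 and 2. In knockouts 5, 6 and 7 they averaged 9.98, 9.65 and 10.57. Foxo4 differed by -0.47 (SE 0.16), Foxo1 by -0.26 (SE 0.17), Foxo3 by -0.16 (SE 0.11) and Foxo6, which was not deleted, by 0.07 (SE 0.15), none past the threshold. For Foxo4 and Foxo3 every knockout lay below every control, by little for Foxo3. With controls 3 and 4 left out Foxo4 differed by -0.55 (SE 0.19), Foxo1 by -0.50 (SE 0.15), Foxo3 by -0.12 (SE 0.11) and Foxo6 by -0.06 (SE 0.13). Every knockout then lay below both controls for Foxo1 as well. Beta cell markers averaged 12.06 to 12.25 in controls and 12.11 to 12.34 in knockouts, so the labelled tissue showed its defining transcripts in all 7 samples. Acinar markers, from the exocrine tissue around islets, were also measured in all samples, with means between 8.32 and 9.52 for controls and between 8.91 and 9.54 for knockouts. Every difference below is knockout minus control on the log2 scale of the deposited values.

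No enzyme of the set passed the test, yet their values leaned towards higher levels in knockout islets. At an adjusted p under 0.05, 0 of the 54 members were higher and 0 were lower (limma, Benjamini-Hochberg over all genes, lowest adjusted p among members 0.362), against 0.00675% and 0% of the 14807 genes. The unadjusted p was under 0.05 for 14 members with higher values (25.9%) and for 0 with lower ones, against 11.6% and 2.14% of all genes. The difference was positive for 47 of 54 members (87.0%), with a median of 0.29, against 68.4% and a median of 0.08 over all genes. All knockout values lay above all control values for 8 members (14.8%) and below for 0, against 8.99% and 1.94% of all genes. The 8 were Cat, Gpx1, Gss, Gstt1, Gstm4, Nqo1, Txndc12 and Txnl4b.

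Part of this lean moved with the controls that stood apart. Control 3 held the lowest value for 32 members and control 4 for 8, against 37.1% and 20.4% of all genes, and knockout 5 held the highest for 31, against 26.8%. The mean of controls 1 and 2 exceeded that of controls 3 and 4 for 47 of 54 members, by a median of 0.33, against 68% and 0.10 over all genes. With controls 3 and 4 left out, 37 of 54 differences were positive (68.5%), with a median of 0.12, against 58.5% and 0.03 over all genes. The unadjusted p was then under 0.05 for 3 members with higher values, Cat, Gstt1 and Nqo1, and for 0 with lower ones, against 3.51% and 1.22%. In the same comparison 10 members lay wholly above the controls (18.5%) and 1, Gstp3, wholly below, against 13% and 6.15% of all genes. Among all 54, the difference was over 1.5 times smaller for 27, over 1.5 times larger for 3 and of the other sign for 10, while 14 stayed within 1.5 times. Knockout 7 was the knockout nearest the controls, with the lowest of the 3 knockout values for 47 members, against 53.7% of all genes.

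**Figure D1:**
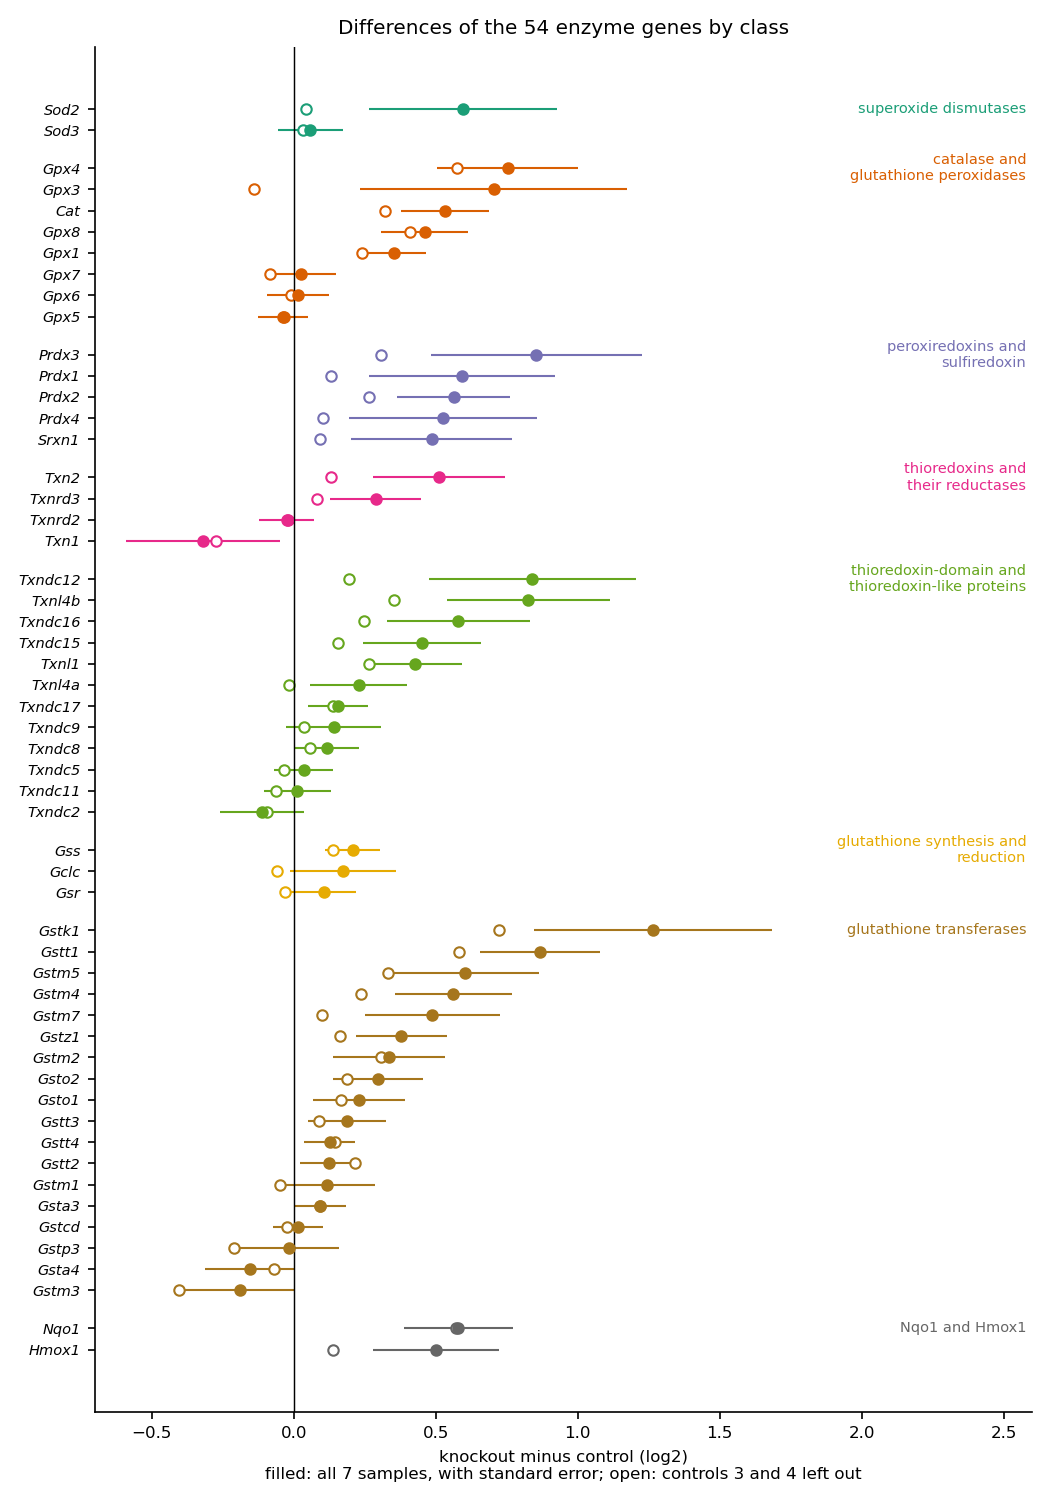
Differences between knockout and control islets (log2) for the 54 enzyme genes, grouped by class; filled points use all 7 samples with the standard error of limma's test as bars, and open points leave out controls 3 and 4. Most filled points lie right of 0, and for Sod2, Gpx3 and the peroxiredoxins the open points lie much nearer 0, whereas those of Nqo1 and Gpx8 hardly differ.

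**Figure D2:**
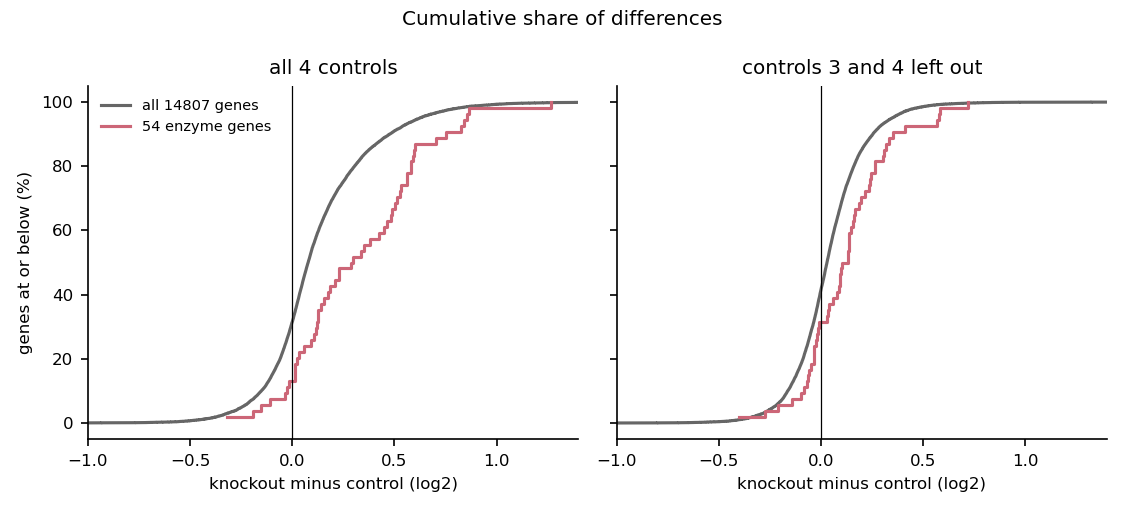
Cumulative percentage of genes (y axis) at or below each knockout minus control difference (x axis, log2) for the 54 enzyme genes and all 14807 genes, with all 4 controls on the left and with controls 3 and 4 left out on the right. The curve of the enzyme genes lies to the right of that of all genes over most of its length, by a median of 0.29 against 0.08 on the left and 0.12 against 0.03 on the right.

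Superoxide dismutation was represented by Sod2, the manganese enzyme of the mitochondrial matrix, and Sod3, the extracellular enzyme. Sod2 was at 10.85, 10.63, 9.56 and 9.70 in controls 1 to 4 and at 11.07, 10.81 and 10.46 in knockouts 5 to 7. Controls 1 and 2 lay among the knockouts and controls 3 and 4 well below them. The difference of 0.60 (SE 0.33, limma, adjusted p = 0.423) was 0.04 (SE 0.19) with controls 3 and 4 left out. Sod3 differed by 0.06 (SE 0.11), with values of 5.95 to 6.24 in controls and 6.00 to 6.27 in knockouts that overlapped throughout.

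Among the enzymes that break down hydrogen peroxide and lipid peroxides, 7 of 8 had positive differences, with a median of 0.41, against 68.4% and 0.08 for all genes. An unadjusted p under 0.05 with higher values was found for 4 of the 8, against 11.6% of all genes. These counts were 4 and 1 with controls 3 and 4 left out, against 58.5% and 3.51%. Cat, the catalase of peroxisomes, was at 7.75, 7.63, 7.19 and 7.33 in controls and at 8.09, 8.10 and 7.83 in knockouts. Every knockout exceeded every control, with group means of 8.01 ± 0.15 (SD, n = 3) and 7.47 ± 0.26 (SD, n = 4). Its difference was 0.53 (SE 0.15), a fold of 1.45 (limma, adjusted p = 0.362), and 0.32 (SE 0.13) with controls 3 and 4 left out. Gpx1, the main cytosolic glutathione peroxidase, was at 10.45, 10.38, 10.16 and 10.22 in controls and 10.80, 10.64 and 10.53 in knockouts, again without overlap. It differed by 0.35 (SE 0.11, limma, adjusted p = 0.362), or by 0.24 (SE 0.12) with those controls left out and 0.16 after quantile normalization.

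Gpx4, which reduces lipid hydroperoxides within membranes, had the largest difference of this class. It was at 9.87, 9.17, 9.03 and 9.30 in controls and 10.43, 10.25 and 9.61 in knockouts, and the groups overlapped through control 1 and knockout 7. Its difference was 0.75 (SE 0.25), a fold of 1.69 (limma, adjusted p = 0.362), and 0.58 (SE 0.28) with controls 3 and 4 left out. Gpx8, a peroxidase of the endoplasmic reticulum, was at 7.01, 6.77, 6.68 and 6.89 against 7.58, 7.32 and 6.99, a difference of 0.46 (SE 0.15), or 0.41 (SE 0.18) with those controls left out. Gpx3, the secreted peroxidase of plasma, followed another course. Its values were 12.04, 11.87, 10.30 and 10.25 in controls and 11.93, 12.00 and 11.53 in knockouts, so that controls 1 and 2 lay at the level of the knockouts. The difference was 0.70 (SE 0.47) with all samples and -0.14 (SE 0.16) with controls 3 and 4 left out. Gpx5, Gpx6 and Gpx7, the last also of the endoplasmic reticulum, differed by -0.04 to 0.02.

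**Figure D3:**
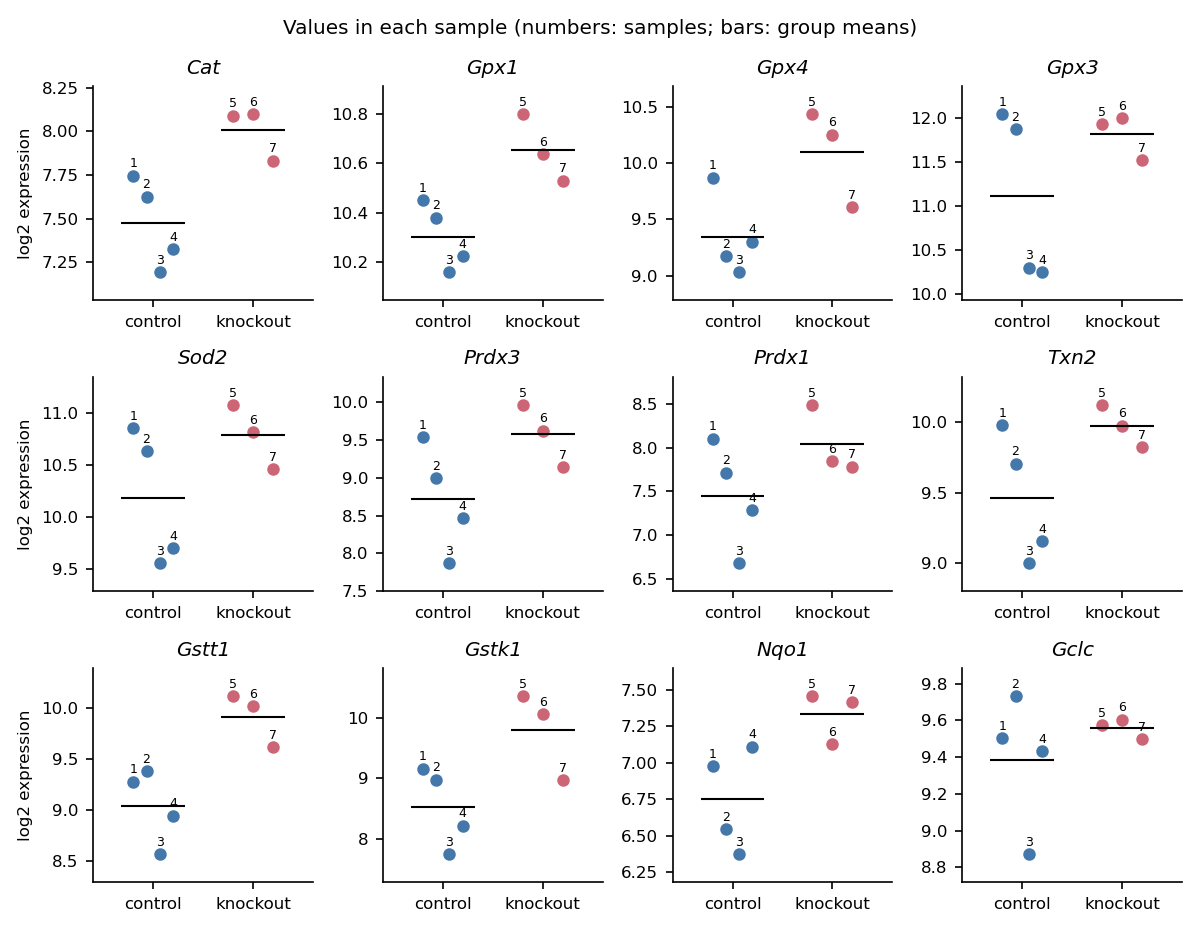
Log2 expression (y axis, own range in each panel) of 12 enzyme genes in each of the 4 control and 3 knockout samples, numbered 1 to 7; bars are group means. Cat, Gpx1, Gstt1 and Nqo1 show no overlap between the groups. For Gpx3 and Sod2 controls 1 and 2 lie at the level of the knockouts and controls 3 and 4 far below.

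All 5 genes of the peroxiredoxins and sulfiredoxin had positive differences, with a median of 0.56, against 68.4% and 0.08 for all genes, and in none were the groups free of overlap. All 5 were still positive with controls 3 and 4 left out, against 58.5% of all genes, with a median of 0.13. Prdx3, the peroxiredoxin of mitochondria, was at 9.53, 9.00, 7.87 and 8.47 in controls and 9.95, 9.62 and 9.14 in knockouts. Its difference was the largest of the class at 0.85 (SE 0.37, limma, adjusted p = 0.364), and was 0.31 (SE 0.25) with controls 3 and 4 left out. Prdx2, a cytosolic peroxiredoxin abundant in red cells, was at 7.54, 7.25, 6.67 and 6.92 against 7.77, 7.71 and 7.49, and the groups overlapped only through control 1 and knockout 7. It was the single gene of the class with an unadjusted p under 0.05 (20% of the class, against 11.6% of all genes). Its difference was 0.56 (SE 0.20, limma, adjusted p = 0.362), or 0.26 (SE 0.14) without controls 3 and 4. The erythroid markers Alas2 and Slc4a1 differed by 0.22 (SE 0.29) and 0.11 (SE 0.17), and their part in the Prdx2 value was not tested.

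Prdx1, a cytosolic peroxiredoxin and NRF2 target whose promoter is shown above, was at 8.10, 7.71, 6.68 and 7.29 in controls and 8.48, 7.85 and 7.78 in knockouts, a difference of 0.59 (SE 0.33, limma, adjusted p = 0.421). Prdx4, the peroxiredoxin of the endoplasmic reticulum, was at 8.10, 7.72, 6.89 and 7.24 against 8.49, 8.14 and 7.41, a difference of 0.53 (SE 0.33, limma, adjusted p = 0.478). Srxn1, which restores overoxidised peroxiredoxins, was at 10.30, 10.50, 9.42 and 9.81 against 10.64, 10.79 and 10.05, a difference of 0.49 (SE 0.28, limma, adjusted p = 0.440). For these 3 genes controls 3 and 4 were the lowest of the 7 samples, and with them left out the differences were 0.13 (SE 0.23), 0.10 (SE 0.30) and 0.09 (SE 0.22).

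The thioredoxins and their reductases did not share a direction. Txn2, the mitochondrial thioredoxin that serves Prdx3, was at 9.98, 9.71, 9.00 and 9.16 in controls and 9.97 to 10.12 in knockouts 5 and 6, with 9.82 in knockout 7. Its difference was 0.51 (SE 0.23, limma, adjusted p = 0.370), and 0.13 (SE 0.14) with controls 3 and 4 left out. Txn1, the cytosolic thioredoxin, had the most negative difference of all members at -0.32 (SE 0.27, limma, adjusted p = 0.613). It was at 5.99, 4.78, 5.25 and 5.69 in controls and 5.36, 4.88 and 5.08 in knockouts, which lay inside the range of the controls. Its probe set was dim, at percentile 18.6 of the mean levels of all genes. With genes below the median level left out, only Txn2 of this class remained. Txnrd2, the mitochondrial reductase, differed by -0.02 (SE 0.10, limma, adjusted p = 0.936) with values of 6.27 to 6.43 in controls and 6.21 to 6.45 in knockouts. Txnrd3, a reductase known mainly from testis, differed by 0.29 (SE 0.16), or 0.08 (SE 0.13) without controls 3 and 4.

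Of the 12 other proteins with a thioredoxin fold, which have varied roles, 11 had positive differences, with a median of 0.19, against 68.4% and 0.08 for all genes. The unadjusted p was under 0.05 for 3 with higher values (25% of the 12, against 11.6%). With controls 3 and 4 left out it was so for 0, against 3.51% of all genes. Txndc12, an oxidoreductase of the endoplasmic reticulum, was at 10.03, 9.94, 8.71 and 8.67 in controls and 10.41, 10.08 and 10.04 in knockouts. The groups did not overlap, but knockout 7 exceeded control 1 by little, and the difference of 0.84 (SE 0.36, limma, adjusted p = 0.364) was 0.19 (SE 0.14) with controls 3 and 4 left out. Txnl4b, a spliceosome-associated protein, was at 8.60, 8.26, 7.30 and 7.67 against 8.95, 8.78 and 8.62, a difference of 0.83 (SE 0.29, limma, adjusted p = 0.362), or 0.35 (SE 0.15) without those controls. Its relative Txnl4a, a core spliceosome component, differed by 0.23 (SE 0.17), and Txnl1, a thioredoxin bound to the proteasome, by 0.43 (SE 0.17). Txndc16 and Txndc15 differed by 0.58 (SE 0.25) and 0.45 (SE 0.21). Txndc5 and Txndc11, both disulfide-handling proteins of the endoplasmic reticulum, differed by 0.03 (SE 0.10) and 0.01 (SE 0.12). Txndc9, Txndc17, Txndc8 and Txndc2, the last pair known from sperm, differed by -0.11 to 0.15.

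All 3 genes of glutathione synthesis and reduction had small positive differences, with a median of 0.17, against 68.4% and 0.08 for all genes. An unadjusted p under 0.05 was found for 0 of the 3, against 11.6% higher and 2.14% lower of all genes. Gss, glutathione synthetase, was at 7.78, 7.94, 7.70 and 7.75 in controls and between 7.95 (knockout 7) and 8.06 (knockout 5) in knockouts, which did not overlap although knockout 7 and control 2 nearly met. Its difference was 0.21 (SE 0.10, limma, adjusted p = 0.373) and 0.14 (SE 0.11) with controls 3 and 4 left out. Gclc, the catalytic subunit of glutamate-cysteine ligase and the rate-limiting enzyme of the pathway, was at 9.50, 9.73, 8.87 and 9.43 in controls and 9.57, 9.60 and 9.50 in knockouts. Control 3 alone lay far below the rest, and the difference of 0.17 (SE 0.19, limma, adjusted p = 0.709) was -0.06 (SE 0.12) without controls 3 and 4. Gsr, glutathione reductase, differed by 0.11 (SE 0.11, limma, adjusted p = 0.709) with values of 9.06 to 9.40 in controls and 9.27 to 9.41 in knockouts, and by -0.03 both without those controls and after quantile normalization.

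The glutathione transferases join glutathione to electrophilic compounds. Of 18 genes, 15 had positive differences (83.3%), with a median of 0.21, against 68.4% and 0.08 for all genes. The unadjusted p was under 0.05 for 5 with higher values (27.8%, against 11.6%). With controls 3 and 4 left out it was so for 1, against 3.51% of all genes. Gstt1, a theta class enzyme that handles small halogenated compounds, was at 9.28, 9.38, 8.57 and 8.95 in controls and 10.11, 10.01 and 9.61 in knockouts. Every knockout exceeded every control, and the means were 9.91 ± 0.26 (SD, n = 3) and 9.04 ± 0.36 (SD, n = 4). It had the smallest p of the 54 members (0.00329 unadjusted), with a difference of 0.87 (SE 0.21), a fold of 1.82 (limma, adjusted p = 0.362), and 0.58 (SE 0.16) with controls 3 and 4 left out. The other theta genes, Gstt2, Gstt3 and Gstt4, differed by 0.12 to 0.19.

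Gstk1, the kappa class enzyme of mitochondria and peroxisomes, was at 9.16, 8.98, 7.75 and 8.22 in controls and 10.35, 10.05 and 8.97 in knockouts. Knockouts 5 and 6 lay far above the controls while knockout 7 lay just below controls 1 and 2. Its difference was the largest of all members at 1.26 (SE 0.42), a fold of 2.40 (limma, adjusted p = 0.362), and was 0.72 (SE 0.37) with controls 3 and 4 left out. In the mu class, which acts on many drugs and lipid products, 5 of 6 genes had positive differences, against 68.4% of all genes. They ran from 0.12 for Gstm1 to 0.60 (SE 0.26) for Gstm5, and Gstm3 differed by -0.19 (SE 0.20). An unused probe set annotated to both Gstm6 and Gstm3 differed by 0.11 and was dim, at a mean of 3.95 in controls. Gstm4 was at 8.56, 8.40, 7.68 and 7.98 in controls and 8.75, 8.80 and 8.60 in knockouts, a difference of 0.56 (SE 0.21) without overlap, or 0.24 (SE 0.12) without controls 3 and 4. Members of the mu class have similar sequences, and probe sets of relatives can share signal. Gstz1, which acts in tyrosine breakdown, differed by 0.38 (SE 0.16), or 0.16 (SE 0.14) without controls 3 and 4. An unused probe set annotated to both Pomt2 and Gstz1 differed by -0.14. The omega enzymes Gsto1 and Gsto2 differed by 0.23 (SE 0.16) and 0.30 (SE 0.16). Gsta3, Gsta4, Gstp3 and Gstcd differed by -0.15 to 0.09. Unused probe sets annotated to both Gstp2 and Gstp1 differed by -0.48 and 0.19.

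Nqo1 and Hmox1 are commonly read as reporters of the NRF2 response. Nqo1, a quinone reductase, was at 6.98, 6.55, 6.37 and 7.11 in controls and 7.45, 7.13 and 7.41 in knockouts. The groups did not overlap, with control 4 just under knockout 6, and here controls 3 and 4 were the lowest and the highest of the controls. The difference of 0.58 (SE 0.19, limma, adjusted p = 0.362) was 0.57 (SE 0.17) with both left out. Hmox1, the inducible haem oxygenase, was at 8.32, 8.54, 7.63 and 7.77 against 8.59, 8.68 and 8.43, a difference of 0.50 (SE 0.22, limma, adjusted p = 0.366), or 0.14 (SE 0.13) with controls 3 and 4 left out.

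Read by compartment instead of by class, a grouping made after the values were seen and not tested, the 5 mitochondrial members Gstk1, Prdx3, Sod2, Txn2 and Txnrd2 had a median of 0.60 with all samples and 0.13 without controls 3 and 4. The 7 members of the endoplasmic reticulum (Gpx7, Gpx8, Prdx4, Txndc5, Txndc11, Txndc12 and Txndc16) had medians of 0.46 and 0.10. Differences ran from -0.02 for Txnrd2 to 1.26 for Gstk1 in the first group and from 0.01 for Txndc11 to 0.84 for Txndc12 in the second. Dim probe sets added little: of 10 members below the first quartile of mean level (5.83), 5 had positive differences. Of the 44 others 42 did, against 70.3% of all genes at or above that quartile. The share of all genes below it was not computed.

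**Figure D4:**
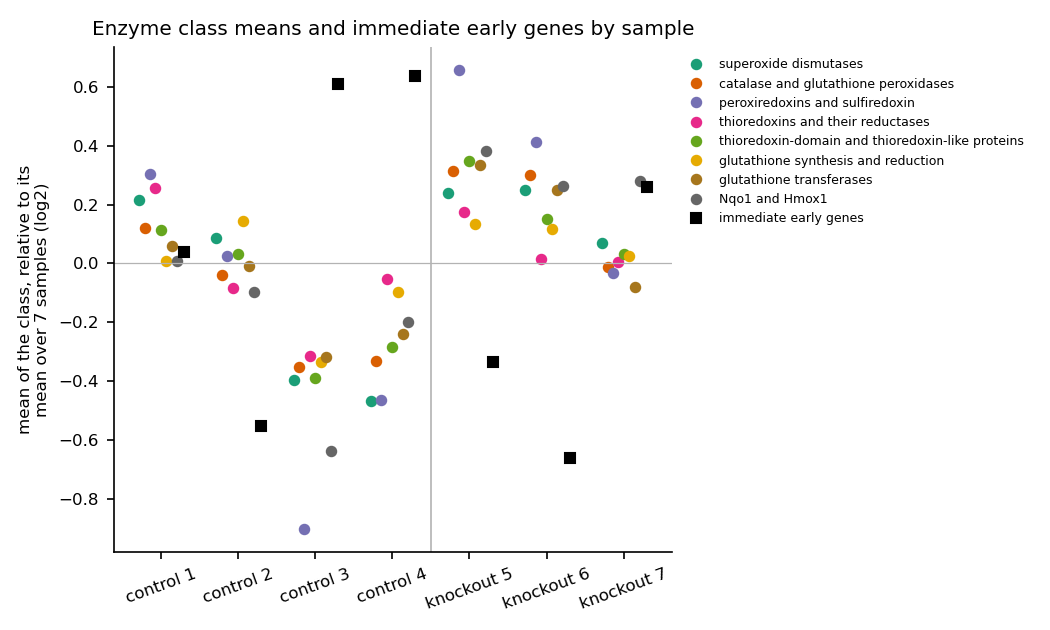
Mean log2 expression of each enzyme class in each sample, relative to the mean of that class over the 7 samples, with the immediate early genes as squares; points within a sample are set apart sideways for legibility. All 8 classes lie below 0 in controls 3 and 4, where the immediate early genes are highest, and above 0 in knockouts 5 and 6.

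The immediate early genes ran the other way: 17 of 17 differences were negative and their median was -0.39, but with controls 3 and 4 left out 10 of 17 were positive and the median was 0.01. The all-gene shares of positive differences to set beside these and the following lists are 68.4% with all samples and 58.5% without those controls. Alpha cell markers had positive differences for 4 of 4, from 0.02 for Gcg to 1.20 for Pou3f4, with means of 10.13 to 10.59 in controls and 10.40 to 10.94 in knockouts. Endothelial markers were negative for 7 of 8, with means of 8.58 to 8.98 and 8.45 to 8.65. Macrophage markers were negative for 5 of 8, duct markers positive for 3 of 4 and acinar markers positive for 6 of 9. Stellate and fibroblast markers were positive for 6 of 7, with Dcn at 0.69 (SE 0.43) and Acta2 at 0.50 (SE 0.25). Their means were 7.67, 7.20, 7.06 and 7.07 in controls 1 to 4, against 7.59, 7.51 and 7.25 in the knockouts. With controls 3 and 4 left out, positive differences numbered 2 of 4 for alpha cell, 0 of 8 for endothelial, 0 of 8 for macrophage, 2 of 4 for duct, 2 of 9 for acinar and 2 of 7 for stellate and fibroblast markers. Beta cell markers were positive for 5 of 10 both with and without those controls. The part of these cells, of handling and of the array scale in the enzyme values was not tested.

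Other redox genes were listed from knowledge of glutathione recycling, quinone and haem handling and NRF2 targets. Of 54 listed, 47 were measured, and 41 had positive differences (87.2%) with a median of 0.25, against 68.4% and 0.08 for all genes. Those with an unadjusted p under 0.05 numbered 10 (21.3%, against 11.6% of all genes), none of them lower, and 0 passed the adjusted threshold. After quantile normalization 8 of 47 were higher (17%) and 3 lower at that p, against 8.6% higher and 707 of 14807 lower among all genes. The median was then 0.12, against 0.04 for all genes. The smallest p belonged to Ggct, a cyclotransferase of the glutathione cycle, which was at 6.78, 6.54, 6.50 and 6.86 in controls and 7.82, 7.14 and 7.16 in knockouts. It differed by 0.70 (SE 0.19, limma, adjusted p = 0.362), and by 0.71 (SE 0.22) with controls 3 and 4 left out. Nqo2, a second quinone reductase, differed by 0.91 (SE 0.26), Chac2, which degrades glutathione, by 0.78 (SE 0.22), and Hmox2, the constitutive haem oxygenase, by 0.69 (SE 0.19), or 0.52, 0.50 and 0.40 without those controls. Over the whole list, 32 of 47 differences were then positive (68.1%), with a median of 0.05, against 58.5% and 0.03 for all genes. Nfe2l2 itself, named after its value was seen, differed by 0.20 (SE 0.18), and by -0.05 (SE 0.14) without those controls.

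Enzymes that produce superoxide or hydrogen peroxide were near balance over the whole list. Of 23 listed, 17 were measured, 9 had positive differences (52.9%, against 68.4% of all genes) and the median was 0.0057 (against 0.08), with 0 past the adjusted threshold and an unadjusted p under 0.05 for 2, both higher. Of these 17 genes 11.8% thus had such a p with a higher value, close to the 11.6% of all genes, so the count is no result about the list. The 2 genes were the monoamine oxidases of the mitochondrial outer membrane. Maob was at 11.80, 11.78, 11.02 and 11.10 in controls and 12.14, 11.99 and 11.85 in knockouts, a difference of 0.57 (SE 0.22) without overlap. Maoa differed by 0.59 (SE 0.24), and the pair by 0.20 (SE 0.12) and 0.29 (SE 0.19) with controls 3 and 4 left out. Acox3, a peroxisomal acyl-CoA oxidase, differed by 0.18 (SE 0.09), and Cyba, a membrane subunit of NADPH oxidase, by 0.25 (SE 0.14). Most of the list was dim. With genes below the median level left out, 3 of the 17 remained, with a median of 0.18, against 0.16 for all genes so filtered.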

How the data were processed

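The authors deposited log2 expression values of 23238 probe sets in 7 arrays, computed, per the submitters' processing notes, by RMA within Expression Console of Affymetrix. RMA subtracts background, normalizes arrays and summarises probes. The sources used here give no version, setting or build, and that values are log2 follows from their range (2.50 to 14.28). RMA makes no detection call, so dim probe sets keep values, and the upper quartiles of the arrays still ran from 8.63 (control 3) to 8.95. Precision is limited by having 7 arrays.

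Of the probe sets, 14939 had 1 symbol, 989 several and 7310 none in the platform annotation. A gene with several probe sets was represented by that with the highest mean, giving 14807 genes. RefSeq (GRCm38.p6) matched 14884 probe sets by Entrez ID and changed 0 symbols. Groups came from the sample titles. Limma 3.58.1 in R 4.3.3 (lmFit and eBayes on all 7 samples, two-sided, with neither covariate nor filter) was run over all genes, with Benjamini-Hochberg adjustment and a threshold of 0.05, and was tested on simulated data. Controls and knockouts carry different replicate numbers, and nothing pairs them.

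The members, the gene lists and the rule for named genes were chosen with earlier results of these data known, and lists are described by counts and medians with no test. The difference, SE and adjusted p were given for the core enzymes. The same was given for the member of each class with the smallest p and that with the largest absolute difference. For the 4 other redox genes and 4 oxidant producers with the smallest p, and for the FoxO genes, the difference and SE were given. Alternatives left out dim genes (below the median), each sample in turn, or controls 3 and 4 together, or used quantile normalization, centring, averaged probe sets, every probe set as a feature, array weights, a trended robust prior or no moderation.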

Additional observations from a re-analysis of the deposited data

Results flagged for a closer look

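Txndc11, a thioredoxin-fold protein of the endoplasmic reticulum, was at 10.17 in control 1, apart from the other 3 controls at 9.87 to 9.89. It was the single member whose extreme control lay that far from the rest (Dixon's ratio 0.935). Chance marks about 1 in 20 such groups of 4 control values without any cause. All 54 members were checked, so 1 mark does not exceed that rate. Its knockout values were 9.91, 9.86 and 10.13.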

How the results depend on the processing

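No member and no gene of the other redox or oxidant-producing lists passed the adjusted threshold under any alternative run. The count of members higher at an unadjusted p under 0.05, 14, was 3 with controls 3 and 4 left out and 6 with an unmoderated test. Over single samples left out it ran from 2 without knockout 5 to 23 without control 1 (7 without control 4 and 5 without knockout 6). The share of all genes so called moved as well, from 11.6% to 3.51% without controls 3 and 4 and 5.8% unmoderated. It was 3.2% without knockout 5 (3.7% of members), 5.9% without control 4 (13% of members) and 18.5% without control 1 (42.6% of members). Without knockout 6 the 5 members called were 9.3%. The share of all genes in that fit is not given here, so the count is no result about the members. The count of members lower ran from 0 to 1. Members with no overlap and higher, 8, numbered 4 after centring and from 8 to 31 over single samples left out, 19 without control 1 and 31 without knockout 7. Of all genes 8.99% lay so apart in the main fit, 5.4% after centring (7.4% of members) and 18.2% without control 1 (35.2% of members). The share of all genes without knockout 7 is not given here, so the count of 31 is no result about the members. Members with no overlap and lower ran from 0 to 1, and numbered 1 with controls 3 and 4 left out. The median over members was 0.29, 0.50 with genes below the median level left out (32 members, against 0.16 for all genes so filtered), 0.12 without controls 3 and 4, 0.19 after quantile normalization, 0.27 after centring and 0.19 to 0.42 over single samples left out. That of the oxidant producers was 0.18 with genes below the median level left out, where 3 of 17 remained. Class medians were, with that filter, 0.49 for the transferases, 0.43 for thioredoxin-like proteins, 0.62 for catalase and glutathione peroxidases, 0.51 for thioredoxins and 0.60 for superoxide dismutases (1 gene each for the last pair), and within 1.5 times the full value for the other 3 classes. With controls 3 and 4 left out they were 0.11 for catalase and glutathione peroxidases, 0.13 for peroxiredoxins, -0.03 for glutathione synthesis, 0.04 for superoxide dismutases, 0.03 for thioredoxins, 0.10 for thioredoxin-like proteins, 0.15 for transferases and 0.35 for Nqo1 with Hmox1. The cause was not tested.

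Signs turned in 35 of 842 member fits, all short of the threshold. With controls 3 and 4 left out these were Gclc (-0.0585), Gpx3 (-0.14), Gpx6 (-0.0114), Gpx7 (-0.0837), Gsr (-0.0319), Gstcd (-0.0232), Gstm1 (-0.0481), Txndc11 (-0.0642), Txndc5 (-0.0343) and Txnl4a (-0.0155). Quantile normalization gave -0.0349 for Gsr, 0.014 for Gstp3, -0.152 for Txndc11 and -0.13 for Txndc5. Centring gave -0.0079 for Gpx6 and Gstcd and -0.0101 for Txndc11, and array weights -0.005 for Gstcd and -0.0718 for Txndc11. Over single samples left out Gpx6 ran from -0.092 to 0.0688, Gpx7 from -0.061 to 0.0874, Gstcd from -0.0292 to 0.0412, Gstp3 from -0.18 to 0.0729, Txndc11 from -0.0687 to 0.0854, Txndc5 from -0.0249 to 0.10 and Txnrd2 from -0.0865 to 0.0295.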
